A study of Mus musculus with 13 samples.

Results

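Immediate early genes are transcribed within minutes of a stimulus, without new protein synthesis, and in hippocampal neurons they mark cells that have recently been active. Calcium entry and kinase cascades phosphorylate factors already bound at their promoters, among them CREB on the cAMP response element and serum response factor with its partners on the CArG box. Most of the genes encode transcription factors that switch on a later wave of genes, and others act at the synapse. The 10 genes described here were matched by symbol in the deposited gene table, where each of the 10 had 1 row of 32285. They are Fos, Fosb and Junb, subunits of the AP-1 factor; Egr1 and Egr3, zinc-finger factors; Npas4, a calcium-induced factor of neurons; Nr4a1 and Nr4a2, orphan nuclear receptors; Arc, which drives the removal of AMPA receptors from synapses; and Homer1, a scaffold of the postsynaptic density.

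RNA was counted in single nuclei of frozen whole hippocampus from 13 female mice of a hybrid strain (labelled C3HB6F1, and C3B6F1 in the series text), with 1 library per mouse. Young mice aged 5 months (n = 3) and old mice aged 24 months (n = 3) were fed ad libitum. Further old mice of 24 months were on dietary restriction either from 20 months of age (acute restriction, n = 3) or from 5 months (long-term restriction, n = 4). No transgene or genotype is given for any group, and the hour of death and the handling before it were not given in the sources used here. Values are unique molecular identifier (UMI) counts, each standing for 1 captured RNA molecule, summed over the nuclei of 1 class in 1 mouse and scaled to a common total (CPM).

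The libraries held 3524 to 12368 barcodes and 38546292 to 80538090 UMIs, and 98041 nuclei remained after filtering, of which 72313 fell in 14 classes named from marker genes and written as X-like. The classes used most were granule-like (31449 nuclei, the principal neurons of the dentate gyrus), CA1-like (7751) and CA3-like (2477) pyramidal, subicular or cortical excitatory-like (1306) and inhibitory-like (5069) neurons. Of 104066 barcode sequences, 1351 occurred in more than 1 library. Nuclei of old ad libitum mice held more UMIs: median UMIs per granule-like nucleus were 3790 to 6471 in young and 7038 to 12781 in old ad libitum mice, so depth and age cannot be told apart. Under acute restriction they were 5620 to 6876, also with no overlap, so depth and acute restriction cannot be told apart either. Under long-term restriction they were 6289 to 9264, which overlapped the old ad libitum mice. The 4 libraries numbered 1, 1 from each group, deviated from their group means together in granule-like nuclei (Pearson's r across genes of 0.43 to 0.82 in 6 of 6 pairs). What the number stands for is not stated. Values without these libraries are given for the member calls with age and for the larger CA1-like cluster described below.

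The members were sparse, and their UMI totals over the retained nuclei were 800 for Fos, 428 for Fosb, 8661 for Junb, 3127 for Arc, 4014 for Egr1, 4146 for Egr3, 1518 for Npas4, 14462 for Nr4a1, 13535 for Nr4a2 and 102224 for Homer1. Homer1 had a UMI in 43.2% of nuclei, Nr4a1 in 9.72%, Nr4a2 in 8.74% and Junb in 7.40%, while Fos reached 0.698% and Fosb 0.382%. Homer1 spans 105.5 kb, against 3.38 kb for Fos and 3.49 kb for Arc, and counts per gene do not separate the short, activity-induced Homer1 transcript (Homer1a) from the long constitutive forms. Junb overlaps Prdx2 on the opposite strand; whether strand was used in counting is not stated, so reads of these 2 genes may not have been told apart.

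The 7 members with a promoter window share the core of the cAMP response element there. This element is named above for genes of this kind, so the match may not be independent of their choice. RefSeq promoter windows (build GRCm38.p6, 250 bases before the annotated start) were matched for 7 of the 10 members in 8 windows. The core of the cAMP response element, TGACG on either strand (read as CGTCA on the other), occurred in a window of each of these 7 members. Counted by window, it was in 7 of their 8 windows and in 17.8% of all 32851 windows of the same length. The full palindrome TGACGTCA, which contains the core, occurred in 1.55% of all windows, the AP-1 site TGANTCA in 6.75%, the CArG box in 1.47% and the EGR site GCGNGGGCG in 4.70%. The EGR site was found in Fosb, Nr4a1 and Nr4a2, and the full palindrome, the AP-1 site and the CArG box in 0 of the 7 members, which says only that these letters are not in these windows. The windows of Fos (chr12:85473640-85473889, plus strand), Junb (chr8:84978749-84978998, minus), Nr4a1 (chr15:101266596-101266845, plus) and Nr4a2 (chr2:57124004-57124253, minus) are printed 5′ to 3′ because Junb was the gene called with age and Fos, Nr4a1 and Nr4a2 form the pairs described below. For Npas4, a stretch of 21 bases with 2 cores in opposite orientations (chr19:4990133-4990153, minus) is shown, which lies before the RefSeq start used here and inside the GENCODE span of the gene. Capitals mark each core.
Fos: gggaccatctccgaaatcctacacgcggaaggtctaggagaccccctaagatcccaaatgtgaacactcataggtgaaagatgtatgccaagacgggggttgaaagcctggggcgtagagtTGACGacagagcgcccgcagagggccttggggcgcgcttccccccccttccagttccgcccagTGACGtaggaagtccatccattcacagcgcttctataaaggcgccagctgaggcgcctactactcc
Junb: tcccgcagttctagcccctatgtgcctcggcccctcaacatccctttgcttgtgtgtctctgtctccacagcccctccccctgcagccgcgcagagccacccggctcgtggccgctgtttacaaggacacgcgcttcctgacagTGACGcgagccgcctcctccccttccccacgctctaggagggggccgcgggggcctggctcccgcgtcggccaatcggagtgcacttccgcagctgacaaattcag
Nr4a1: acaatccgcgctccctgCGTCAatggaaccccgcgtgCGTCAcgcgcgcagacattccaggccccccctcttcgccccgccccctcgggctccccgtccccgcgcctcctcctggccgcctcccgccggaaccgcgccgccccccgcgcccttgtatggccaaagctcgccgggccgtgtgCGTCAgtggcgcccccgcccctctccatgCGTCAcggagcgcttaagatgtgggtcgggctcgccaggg
Nr4a2: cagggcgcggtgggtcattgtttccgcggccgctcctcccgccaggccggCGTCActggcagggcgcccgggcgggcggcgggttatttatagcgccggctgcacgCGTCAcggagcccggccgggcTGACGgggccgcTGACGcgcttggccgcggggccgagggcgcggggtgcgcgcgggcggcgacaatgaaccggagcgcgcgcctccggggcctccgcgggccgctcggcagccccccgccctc
Npas4: cgaCGTCAcgggaTGACGtcg
The Fos window holds 2 cores, that of Junb 1, and those of Nr4a1 and Nr4a2 4 each. A match of letters is a description of the window and was not tested as a binding site.

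CA1-like neurons held more RNA, in CPM, than granule-like neurons for the 7 members that passed the filter of the test below. Among the AP-1 subunits, Junb averaged 24.0 ± 10.1 CPM in CA1-like nuclei (SD, n = 13 mice), 12.5 ± 4.17 in CA3-like, 10.4 ± 3.84 in granule-like, 10.2 ± 6.04 in subicular or cortical-like and 6.83 ± 3.43 in inhibitory-like nuclei. Fos averaged 2.19 ± 2.56 CPM in CA1-like, 2.77 ± 3.51 in subicular or cortical-like and 0.562 ± 0.429 in granule-like nuclei. Fosb averaged 0.316 to 0.892 CPM over the 5 neuron classes. The SD of Fos over mice was 2.56 against a mean of 2.19 CPM in CA1-like nuclei, and Fosb averaged 0.786 ± 0.421 CPM in CA1-like, 0.654 ± 0.307 in granule-like and 0.892 ± 1.52 in CA3-like nuclei. For Fos and for Fosb the ranges of 1 SD around the 5 class means overlapped, and no order of the classes is read for these 2 genes.

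Arc and the Egr factors were set apart by their level in CA1-like nuclei. Arc averaged 15.4 ± 9.73 CPM there, 5.45 ± 2.05 in CA3-like, 3.64 ± 2.51 in subicular or cortical-like, 1.49 ± 0.689 in granule-like and 0.550 ± 0.384 in inhibitory-like nuclei. Egr1 averaged 14.5 ± 8.37 CPM in CA1-like nuclei and between 2.34 and 3.75 in the other 4 neuron classes. Egr3 kept another order, with 9.95 ± 4.46 CPM in CA1-like, 6.97 ± 1.45 in granule-like, 5.84 ± 2.24 in CA3-like, 1.85 ± 1.27 in subicular or cortical-like and 0.972 ± 0.611 in inhibitory-like nuclei. Npas4 averaged 5.94 ± 3.29 CPM in CA1-like, 3.81 ± 3.71 in subicular or cortical-like, 3.40 ± 2.72 in CA3-like, 2.23 ± 0.616 in inhibitory-like and 0.672 ± 0.362 in granule-like nuclei, and the first 3 of these overlapped widely over mice.

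The nuclear receptors had their highest level among these 5 classes in subicular or cortical-like nuclei, with 77.5 ± 23.2 CPM of Nr4a1 and 61.0 ± 25.2 of Nr4a2. CA1-like nuclei followed with 38.5 ± 16.6 and 28.0 ± 10.8 CPM. The 2 receptors then parted: inhibitory-like nuclei held 24.3 ± 5.04 CPM of Nr4a1 and 3.97 ± 0.993 of Nr4a2, whereas granule-like nuclei held 3.93 ± 0.881 of Nr4a1 and 8.34 ± 1.84 of Nr4a2. Homer1 averaged 300.3 ± 71.4 CPM in CA1-like, 229.1 ± 40.5 in CA3-like, 118.4 ± 18.3 in subicular or cortical-like, 93.5 ± 9.83 in inhibitory-like and 92.9 ± 7.33 in granule-like nuclei, and the last 2 did not differ beyond their spread.

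The CA1-like class was made of 2 clusters with unlike levels. In the larger one (5912 nuclei, cluster 5) Arc averaged 19.9 ± 12.7 CPM over 13 mice, against 4.27 ± 2.53 over 11 mice in the smaller (1839 nuclei, cluster 15). Homer1 averaged 354.8 ± 72.7 against 166.6 ± 24.6 CPM, Egr1 17.8 ± 10.4 against 5.37 ± 3.84 and Junb 27.0 ± 11.8 against 13.99 ± 5.77, while Egr3 (10.1 against 8.95) and Nr4a2 (26.8 against 30.3) lay close together. In the smaller cluster Arc and Homer1 were thus below their CA3-like means of 5.45 and 229.1 CPM. The larger cluster held 46.7, 55.6 and 92.5% of CA1-like nuclei in the young mice, 50.3, 95.6 and 98.5% in the old ad libitum mice, 94.8, 99.9 and 57.3% under acute and 59.3, 48.0, 80.3 and 54.8% under long-term restriction. The mix of clusters therefore differed between mice of a group, and young and old ad libitum replicate 1 had the lowest shares of their groups. Values for the larger cluster alone are given beside the group comparisons below, and the part of the mix in the differences between classes was not tested.

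**Figure D1:**
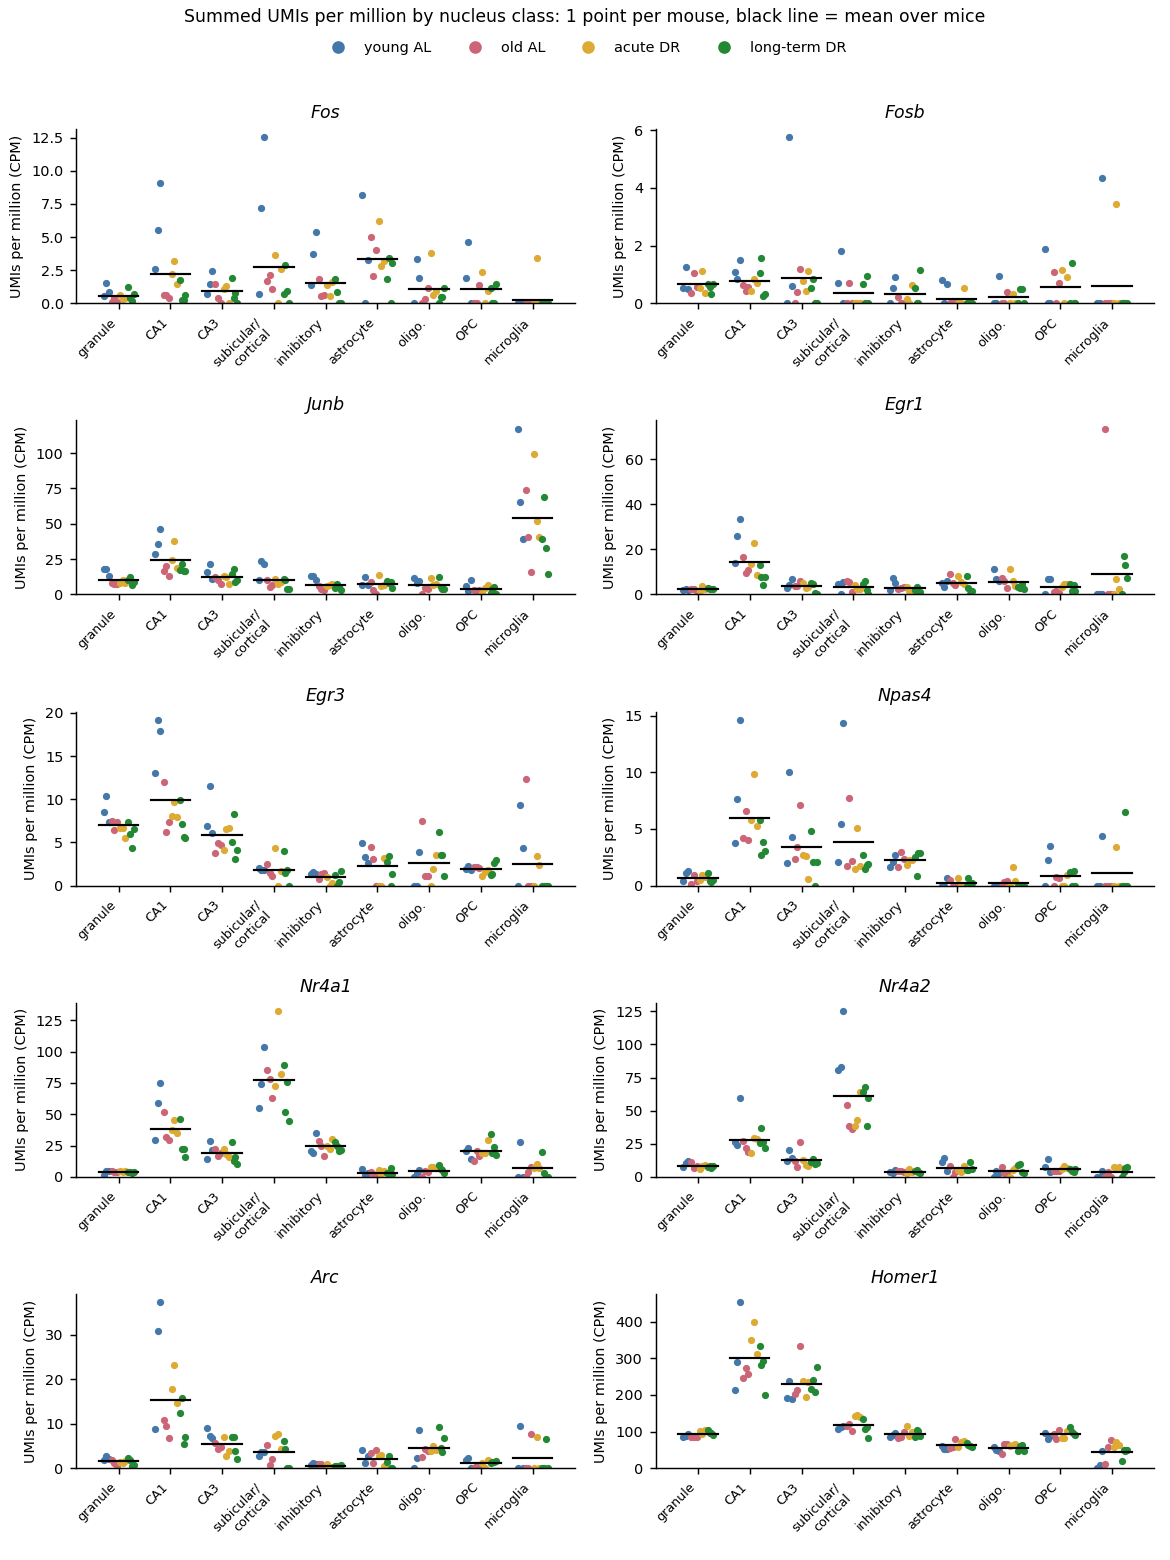
Summed UMIs in CPM (linear y axis from 0, own scale per panel) of each of the 10 genes in 9 classes of nuclei. Points are mice, coloured by group, and black lines are means over mice; Arc, Egr1 and Homer1 are highest in CA1-like nuclei and Nr4a1 and Nr4a2 in subicular or cortical-like nuclei, while microglia-like Junb averages 53.8 CPM.

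These differences were tested between classes of the same mouse with edgeR's quasi-likelihood test, with mouse as a term and Benjamini-Hochberg adjustment over 13918 genes per pair of classes. Clusters were made without the members among the variable genes. Fos, Fosb and Npas4 did not pass the filter on low counts, which left 7 members, and 83 of their tests over 14 pairs of classes were called, where 62.8% of all tests were. CA1-like nuclei were higher than granule-like nuclei for 7 of 7, in a comparison where 29.5% of all genes were called higher in CA1-like nuclei. The log2 difference was 3.27 (SE 0.143, adjusted p = 4.2e-43) for Arc, 3.25 for Nr4a1, 2.52 for Egr1, 1.73 for Nr4a2, 1.68 for Homer1 (SE 0.068), 1.19 for Junb and 0.46 for Egr3 (SE 0.107, adjusted p = 0.000104). CA1-like nuclei were also higher than CA3-like and than inhibitory-like nuclei for 7 of 7 members, where 23.9% and 32.6% of all genes were called higher. Against subicular or cortical-like nuclei 5 of 7 were higher in CA1-like nuclei (31.2% of genes called higher), and Nr4a1 and Nr4a2 were lower, by log2 differences of -0.88 and -0.96 (21.6% called lower). Between granule-like and inhibitory-like nuclei, Nr4a1 was lower in granule-like nuclei (log2 difference -2.48) and Nr4a2 higher (1.21), with 34.7% of genes called lower and 38.2% higher, while Homer1 and Egr1 did not pass (adjusted p = 0.0501 and 0.68).

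In CPM, glia and vascular cells held some members at levels as high as neurons. These nuclei are shallower, and UMIs per nucleus gave another picture. Junb averaged 0.0798 UMIs per microglia-like nucleus, against 0.251 per CA1-like and 0.0729 per granule-like nucleus. Junb averaged 53.8 ± 30.5 CPM in microglia-like nuclei (13 mice, 115 UMIs in all) and 61.4 ± 27.6 in endothelial-like nuclei (54 UMIs), and was higher in microglia-like than in granule-like nuclei (log2 difference 1.56, SE 0.194, adjusted p = 2.98e-12 with edgeR), where 27.0% of genes were called higher. Nr4a1 averaged 20.7 ± 5.86 CPM in oligodendrocyte precursor-like nuclei and was 2.22 log2 units above granule-like nuclei (SE 0.172, adjusted p = 6.33e-23), in a comparison that called 32.1% of genes higher. Nr4a1 in astrocyte-like and mature oligodendrocyte-like nuclei, at 3.28 ± 2.12 and 4.99 ± 2.85 CPM, was not called against granule-like nuclei (adjusted p = 0.0738 and 0.179), where 79.9% and 79.2% of genes were called. Arc, a gene of neurons, was higher in CPM in oligodendrocyte-like than in granule-like nuclei (4.49 ± 2.53 against 1.49 CPM, log2 difference 1.60, adjusted p = 3.54e-09), where 37.6% of genes were called higher. Per nucleus the order of Arc turned, with 0.00897 UMIs in oligodendrocyte-like and 0.0105 in granule-like nuclei.

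Free RNA from broken cells gives UMIs in nuclei that do not express a gene, and nuclei of different depth are not comparable by detection. Each nucleus was therefore thinned to 1000 UMIs, and shallower nuclei were left out. The mean share of nuclei with a UMI over 13 mice was then 0.126% for Arc in granule-like nuclei (0.735% unthinned, median 6312 UMIs per nucleus) and 0.390% in oligodendrocyte-like nuclei (0.897% unthinned, median 1884 UMIs). Egr1 gave 0.233% and 0.602%, Fos 0.0346% and 0.147%, and Nr4a1 0.350% and 0.607%. In granule-like nuclei these 4 genes were thus below the share in oligodendrocyte-like nuclei. Unthinned mean UMIs per nucleus ran the other way, at 0.0105 in granule-like against 0.00897 in oligodendrocyte-like nuclei for Arc. They were 0.0174 against 0.0115 for Egr1 and 0.00356 against 0.00189 for Fos. Thinning sets a common depth and does not remove free RNA. For Arc, Egr1 and Fos neither expression nor its absence is therefore read from the share over the whole class. Their UMIs were not spread evenly within it: Arc averaged 4.195 ± 4.22 CPM in 1 granule-like cluster and 0.840 ± 0.445 in another. The order for Nr4a1 turned at 2000 UMIs, with 0.788% against 0.444%, so no order is read for it. The other 6 lay above it: Egr3 0.819% against 0.347%, Junb 0.972% against 0.689%, Nr4a2 0.841% against 0.488%, Homer1 7.92% against 5.41%, Npas4 0.0801% against 0.0101% and Fosb 0.0907% against 0.0426%. CA1-like nuclei were above oligodendrocyte-like nuclei for 10 of 10 members, with 1.43% for Arc, 1.46% for Egr1 and 3.68% for Nr4a1, although their Fos share of 0.214% was below the 0.408% of astrocyte-like nuclei.

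Granule-like nuclei were not uniform. They formed 3 clusters, and the one led by Pappa, Bdnf and Trpc6 (7009 nuclei, cluster 4) held more of the members than the clusters of 12906 and 11534 nuclei. Nr4a1 averaged 13.7 ± 9.36 CPM over mice in it, against 1.95 ± 0.751 and 1.91 ± 0.762 in the other two. Egr3 averaged 12.3 ± 3.34 CPM, against 6.64 ± 2.48 and 5.13 ± 2.00, which made this cluster the one with the highest Egr3 of all 29 clusters in which members were summed. Homer1 averaged 122.0 ± 24.2 CPM, against 72.9 ± 9.15 and 97.4 ± 10.7. These cluster levels are descriptions, since the clusters were made from the same nuclei.

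Ageing was the contrast with a call. Of 49 pairs of a member and a class that passed the filter, 1 was called at an adjusted p below 0.05 in the edgeR fit over the 13 mice, and over all genes and classes 1.55% of pairs were called (0.658% lower and 0.889% higher in old mice). An unadjusted p below 0.05 was found for 11 of the 49 pairs and for 17.3% of all pairs. The median log2 difference over the 49 pairs was -0.28, with 35 pairs lower in old mice. With the trend over gene span removed, as described below, 25 of the 49 were lower. The share of all pairs that were lower is not given here. In CA1-like nuclei 9 of 9 members were lower (median -0.85), in granule-like 6 of 10 (-0.10) and in CA3-like 6 of 8 (-0.08). In inhibitory-like nuclei 3 of 5 were lower (-0.008) and in subicular or cortical-like nuclei 2 of 4 (-0.49).

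Junb was called lower in old than in young granule-like nuclei, in a result that not every fit kept. It stood at 18.0, 18.1 and 12.7 CPM in the young mice and at 7.98, 7.58 and 7.20 in the old ad libitum mice, so the groups did not overlap, and each old mouse was below each young one. The log2 difference was -0.95 (SE 0.193, edgeR, Benjamini-Hochberg adjusted p = 0.0299), in a class where 0.740% of genes were called lower and 20.6% of genes were lower in old mice without overlap. The share of granule-like nuclei with a Junb UMI at 1000 UMIs was 1.32 to 1.63% in young and 0.560 to 0.835% in old mice. The call was lost without old ad libitum replicate 1 (adjusted p = 0.0537), 2 (0.146) or 4 (0.143) or young replicate 2 (0.118), and was kept without the 4 libraries numbered 1 (adjusted p = 0.0229, log2 difference -0.87).

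Short genes as a group were lower in old granule-like nuclei, and Junb is short. Genes in the shortest quartile of span had a median log2 difference of -0.42, against -0.04 over all genes, and with the trend over gene span removed in each mouse Junb was at -0.42 (adjusted p = 0.15). With the median UMIs per nucleus as a covariate it was at -0.90 (adjusted p = 0.424), where 36 genes in all were called over the classes. Some marker lists of other cell types moved too, and the lists not named in this paragraph are not given here. The 6 fibroblast markers summed to 6.17 to 11.04 CPM in young and 3.74 to 4.59 in old granule-like nuclei, with Slc22a6 at 0 in each of these 6 mice. The 6 mural markers summed to 2.88 to 5.03 and 1.91 to 2.70. For the 6 microglial markers the sums were 50.5 to 198.4 and 32.6 to 57.0, which overlapped. The part of these markers in the Junb difference was not tested.

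In other classes Junb lay lower in old mice without passing the test. In inhibitory-like nuclei it was 12.8, 13.3 and 10.4 CPM in young and 6.06, 3.51 and 3.27 in old ad libitum mice, with no overlap (log2 difference -1.37, SE 0.319, edgeR adjusted p = 0.0832), where 0.0975% of genes were called and 15.4% were lower without overlap. Without the 4 libraries numbered 1 this pair passed (adjusted p = 0.0165). In CA1-like nuclei Junb was 28.3, 35.8 and 46.2 CPM in young and 16.2, 20.2 and 13.1 in old mice (log2 difference -1.04, adjusted p = 0.303), again without overlap, where 12.6% of genes were lower without overlap. The difference was negative in 8 of the 8 classes in which Junb was tested, from -0.28 in astrocyte-like to -1.37 in inhibitory-like nuclei. These classes come from the same mice and are not independent repeats. Genes in the shortest quartile of span, which holds Junb, had medians of -0.42 in granule-like and -0.32 in CA1-like nuclei. The share of all genes that were negative in each of these classes is not given here. The Junb difference was not called as unequal between granule-like and CA1-like nuclei (0.08, SE 0.291) or granule-like and inhibitory-like nuclei (0.39, SE 0.278) by limma on within-mouse differences (adjusted p = 0.983 and 0.922). On simulated counts the first of these comparisons recovered 25% of differences of 0.7, so equal effects are not shown.

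**Figure D2:**
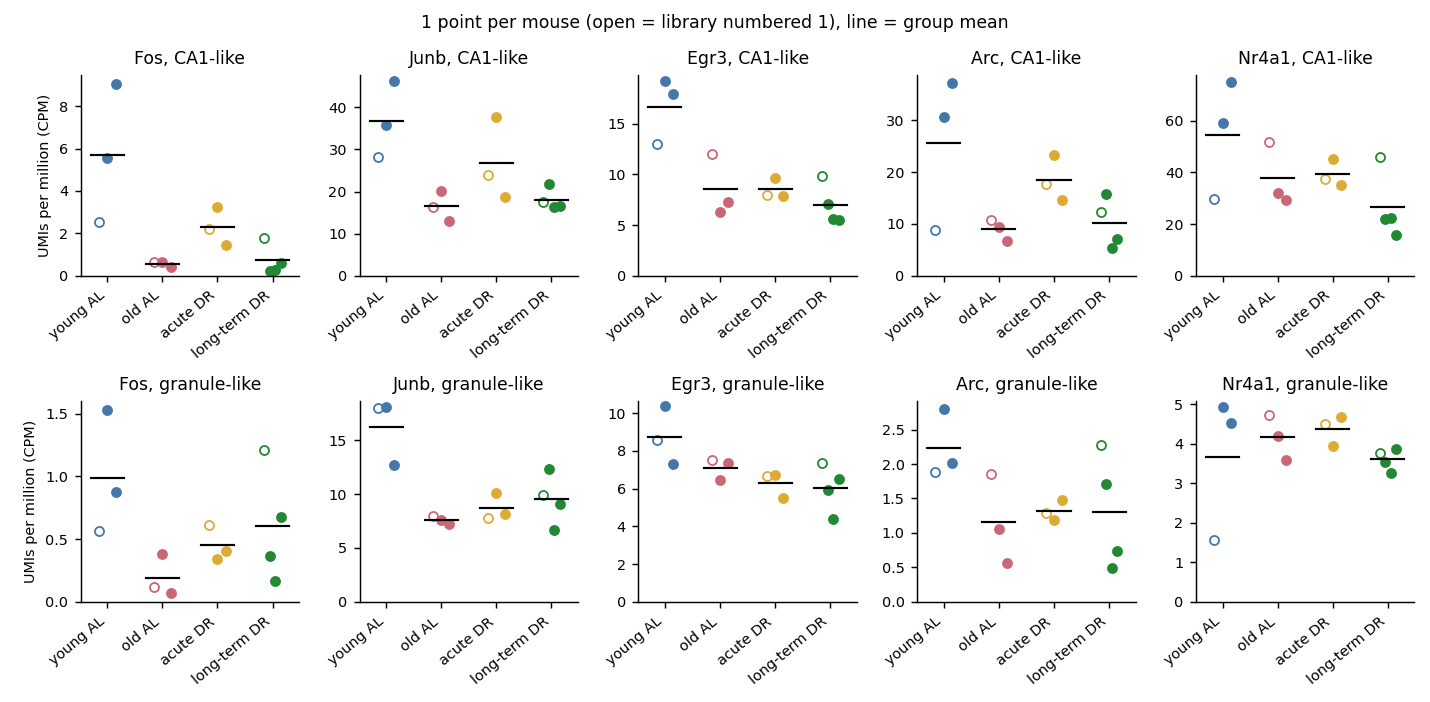
Summed UMIs in CPM (linear y axis from 0) of 5 genes in CA1-like (top) and granule-like nuclei (bottom) by group, 1 point per mouse and a line at the group mean; open points are libraries numbered 1. Junb in the old ad libitum mice sits between 7.20 and 7.98 in granule-like nuclei, below the 12.7 to 18.1 of the young mice.

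In CA1-like nuclei 9 of 9 tested members had fitted values below those of young mice in the old ad libitum group, with a median log2 difference of -0.85 against -0.02 over all genes. Short genes were lower here too: 6 of the 9 are in the shortest quartile of span, whose median was -0.32, and with the trend over gene span removed in each mouse the median of the 9 was -0.50 against 0.11 over all genes. Of the 9, 0 were called by edgeR, in a class where 0.0% of 14347 genes were called, and 4 had an unadjusted p below 0.05, as did 14.4% of all genes. The 1 member call of DESeq2 over all classes was Junb in granule-like nuclei; in CA1-like nuclei it gave no adjusted p for Fos, Junb, Arc or Egr3. Fos, the most used marker of recent neuronal activity, was 2.55, 5.55 and 9.06 CPM in the young mice, from 21, 13 and 60 UMIs. It was 0.624, 0.624 and 0.385 CPM in the old ad libitum mice, from 4, 6 and 2 UMIs. The groups did not overlap, and the fitted log2 difference was -3.21 (SE 0.705, adjusted p = 0.303). Arc was 8.87, 30.7 and 37.3 CPM in young and 10.8, 9.47 and 6.74 in old mice, so the groups overlapped through young replicate 1 (log2 difference -1.38, adjusted p = 0.316). Without young replicate 3, the highest, the Arc difference was -0.85. Egr3 was 13, 19.2 and 18.0 CPM in young and 12.01, 6.24 and 7.32 in old mice, with no overlap (log2 difference -0.85, adjusted p = 0.308). Groups did not overlap for 3 of the 9 members (Fos, Egr3 and Junb), and 12.6% of all genes in this class were lower in old mice without overlap.

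The larger CA1-like cluster taken alone, an alternative added after the data were seen, gave the same signs. Fos there was 1.81, 9.06 and 9.75 CPM in young and 0.648, 0.657 and 0.391 in old ad libitum mice, and Junb 34.3, 48.3 and 49.1 against 18.5, 20.9 and 13.3, both with no overlap, where 12.2% of genes were lower without overlap. Arc was 10.8, 48.3 and 39.8 CPM against 13.6, 9.86 and 6.85, so young replicate 1 again lay among the old mice, within this cluster too. The fitted differences were negative for 9 of 9 members (median -1.01, against -0.04 over all genes), 7 had an unadjusted p below 0.05, as did 18.1% of all genes, and 0 members and 0 of 12813 genes were called by edgeR. The log2 difference was -3.47 for Fos (adjusted p = 0.113), -1.27 for Junb (0.113), -1.65 for Arc (0.195) and -1.01 for Egr3 (0.17).

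The 4 libraries numbered 1 weighed on the CA1-like values. With these libraries left out, which leaves 2 young and 2 old ad libitum mice in the ageing contrast, 9 of 50 pairs of a member and a class were called by edgeR, each lower in old mice, where 4.72% of all pairs were called lower. In CA1-like nuclei these were Fos (log2 difference -3.69, adjusted p = 0.0106), Egr3 (-1.36, adjusted p = 0.0156), Nr4a1 (-1.04, adjusted p = 0.0365) and Arc (-1.96, adjusted p = 0.0381), in a class where 3.42% of genes were then called lower. In the larger CA1-like cluster alone, without these libraries, 8 of 9 members were called lower, the exception being Homer1 (log2 difference -0.63, adjusted p = 0.0696), and 5.67% of genes were. The other 5 of the 9 pairs were Junb and Fos in granule-like nuclei (adjusted p = 0.0229 and 0.0427, 11.0% of genes called lower), Junb and Fos in inhibitory-like nuclei (0.0165 and 0.0453, 5.98% called lower) and Nr4a2 in subicular or cortical-like nuclei (log2 difference -1.42, adjusted p = 0.00441, 2.72% called lower).

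Within the granule-like clusters taken 1 at a time, Junb was called in the cluster of 11534 nuclei (log2 difference -1.02, adjusted p = 0.0339, 0.399% of genes called lower) and in the Pappa and Bdnf cluster (-1.31, adjusted p = 0.0459), and stood at -1.13 in the largest (adjusted p = 0.0505, 0.796% of genes called lower). Arc was called in the Pappa and Bdnf cluster alone of the 2 in which it passed the filter (-2.11, SE 0.486, edgeR adjusted p = 0.0314), where 0.539% of genes were called lower. In that cluster Homer1 was lower in old mice by 0.47 (adjusted p = 0.067) and Nr4a2 by 1.01 (adjusted p = 0.222), neither past the test. Fos in granule-like nuclei was 0.567, 1.53 and 0.874 CPM in young and 0.116, 0.379 and 0.0706 in old mice (log2 difference -1.92, adjusted p = 0.111). Leaving out 1 library at a time gave differences from -3.16 to -1.54, and over 23 alternatives they reached -0.82.

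Nr4a2 was lower in old subicular or cortical-like nuclei without passing the main test. Nr4a2 stood at 80.8, 83.0 and 125.3 CPM in young and 54.3, 38.1 and 36.2 in old ad libitum mice, with no overlap (log2 difference -1.07, SE 0.242, edgeR adjusted p = 0.129), in a class where 0.00983% of genes were called and 10.9% were lower without overlap. Nr4a1 in the same nuclei differed by 0.09 (SE 0.307, adjusted p = 0.942). The sums rested on 34 to 117 Nr4a2 UMIs per mouse in these groups.

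No member was called under dietary restriction. For acute against ad libitum in old mice, 0 of 49 pairs were called by edgeR and 0 by DESeq2, and 0.230% of pairs over all genes were called. An unadjusted p below 0.05 was found for 3 of the 49 and for 4.98% of all pairs. Signs differed between the neuron classes. Fitted differences were positive for 2 of 8 members in CA3-like (median -0.12) and 7 of 10 in granule-like nuclei (0.20). They were positive for 3 of 5 in inhibitory-like (0.16) and 4 of 4 in subicular or cortical-like nuclei (0.30). In CA1-like nuclei 9 of 9 members had positive fitted differences (median 0.45, against 0.00 over all genes), and 3 of them did not overlap between the groups, where 5.18% of genes were higher without overlap. Fos was 2.20, 3.22 and 1.44 CPM under acute restriction, each above the 3 old ad libitum mice (log2 difference 2.05, SE 0.713, adjusted p = 1). Arc was 17.7, 23.3 and 14.6 CPM, also above the 3 ad libitum values of 10.8, 9.47 and 6.74 (log2 difference 1.05, adjusted p = 1). Homer1 was 350.5, 401.1 and 311.8 CPM against 246.7, 273.8 and 256.5 (log2 difference 0.45, SE 0.27, adjusted p = 1). In the larger CA1-like cluster alone the 9 differences were positive too (median 0.39, against -0.01 over all genes), with Fos at 2.12 (SE 0.746) and Arc at 1.09, 2 members with an unadjusted p below 0.05 (3.97% of all genes) and 0 calls. Without the 4 libraries numbered 1 the 9 stayed positive in that cluster (median 0.70, against -0.01 over all genes). Then 8 had an unadjusted p below 0.05 by edgeR, as did 9.01% of all genes, and 0 were called, where 0.176% of genes were. Fos was 2.22, 3.22 and 2.10 CPM there under acute restriction, and Arc 18.7, 23.3 and 22.7, each above the 3 old ad libitum mice, where 7.28% of genes were higher without overlap. This contrast shares the old ad libitum mice with the ageing contrast, so low values in those mice enter both. Depth differed between its groups as well. Median UMIs per CA1-like nucleus were 8704 to 10136 under acute restriction and 10376 to 19773 in old ad libitum mice, with no overlap.

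Homer1 in granule-like nuclei varied little within groups. It was 84.2, 87.8 and 91.9 CPM in young mice, 84.9, 85.9 and 86.0 in old ad libitum mice, with 101.9, 93.9 and 103.7 in the acute and 105.2, 96.8, 95.3 and 89.7 in the long-term group. Each restricted mouse was above each old ad libitum mouse, by a log2 difference of 0.22 (SE 0.091, edgeR adjusted p = 0.797) for acute and 0.19 (SE 0.086, adjusted p = 1) for long-term restriction. Without overlap, 5.66% of all genes were higher under acute and 2.41% under long-term restriction in these nuclei.

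For long-term restriction 0 of 49 pairs were called by edgeR and 0 by DESeq2, and 0.0554% of pairs over all genes were called. An unadjusted p below 0.05 was found for 2 of the 49 and for 4.77% of all pairs. In CA1-like nuclei the median difference of the 9 members was 0.07, with 5 higher and 4 lower, and in the larger CA1-like cluster alone it was 0.19, again with 5 higher and 4 lower. Without the 4 libraries numbered 1 the median in that cluster was -0.08, with 4 higher and 5 lower. In the whole CA1-like class Fos was 1.77, 0.222, 0.256 and 0.611 CPM, which overlapped the old ad libitum mice. Arc in the whole class was 12.3, 15.8, 5.37 and 7.02 CPM, and Nr4a1 45.9, 22.0, 22.2 and 15.6, with the library numbered 1 the highest for Fos and Nr4a1. Long-term against acute restriction gave 0 calls by edgeR and 0 by DESeq2, with 0.0122% of all pairs called, and an unadjusted p below 0.05 for 3 of the 49 pairs and 3.17% of all pairs. Under long-term restriction 2 of 8 members were lower in CA3-like (median 0.14) and 5 of 10 in granule-like nuclei (-0.009). The counts were 4 of 5 in inhibitory-like (-0.11) and 3 of 4 in subicular or cortical-like nuclei (-0.31). In CA1-like nuclei 8 of 9 members were lower under long-term restriction (median -0.63), among them Junb at 17.5, 21.8, 16.4 and 16.5 CPM against 24.0, 37.7 and 18.7 (log2 difference -0.63, SE 0.254, adjusted p = 0.99). In the larger cluster alone 8 of 9 were lower as well (median -0.42), with Junb at -0.48 (SE 0.221), and 1 had an unadjusted p below 0.05 by edgeR (2.2% of all genes). Without the 4 libraries numbered 1, 9 of 9 were lower in that cluster (median -0.59). Then 5 had an unadjusted p below 0.05 (4.99% of all genes) and 0 were called. Tests of whether an effect differed between granule-like, CA1-like and inhibitory-like nuclei gave 0 calls among the members by limma, and 0.01% of genes were called over the fits together. Such tests missed most small simulated differences, so 0 calls does not show equal effects.

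**Figure D3:**
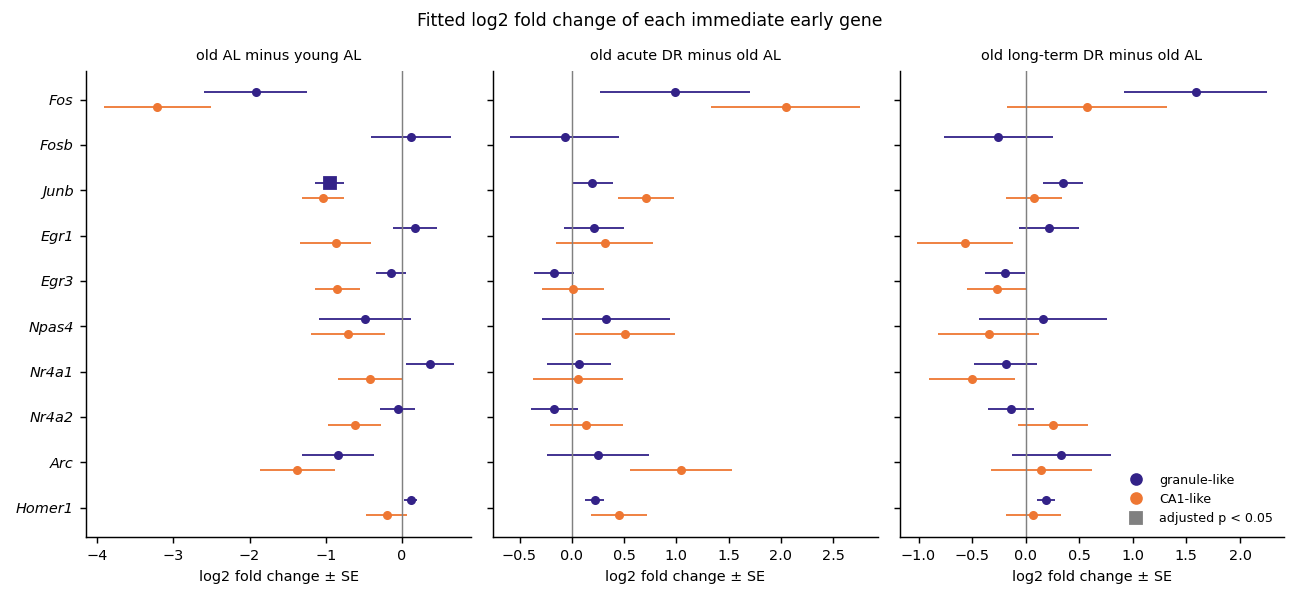
Fitted log2 difference with its SE (x axis) of each gene in granule-like and CA1-like nuclei for ageing, acute and long-term restriction. The square is the 1 called pair, Junb in granule-like nuclei with age; in CA1-like nuclei the 9 ageing values lie below 0 and the 9 acute restriction values above it.

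Calls among other genes of the pathway lay in the rapid and late response lists. With age, edgeR called 4 of 80 pairs of a late response gene and a class (5.0%, each higher in old mice, beside 0.889% of all pairs) and 1 of 83 pairs of another rapid response gene (1.2%, lower, beside 0.658%). The 4 late response pairs came from Sorcs3 and Pcsk1 alone. The lists were chosen with earlier results of these data known, so these rates are descriptions and not independent of the data. Under acute restriction it called 1 of 80 and 1 of 83, beside 0.230%. Of 20 other rapid response genes, Ier2 fell with age in granule-like nuclei (log2 difference -2.32, SE 0.531, edgeR adjusted p = 0.0393), and Per1, a clock and glucocorticoid-responsive gene, rose in oligodendrocyte-like nuclei under acute restriction (1.53, adjusted p = 0.00181). Of 14 late response genes, Sorcs3, a sorting receptor of neurons, rose with age in granule-like (1.19, adjusted p = 0.00294), oligodendrocyte-like (0.54, adjusted p = 0.042) and oligodendrocyte precursor-like nuclei (0.58, adjusted p = 0.00498) and fell under acute restriction in oligodendrocyte-like nuclei (-0.93, adjusted p = 0.000702). Sorcs3 is among the longest genes and Ier2 among the shortest, and the median of the longest quartile of span was 0.22 in granule-like, 0.27 in oligodendrocyte-like and 0.21 in oligodendrocyte precursor-like nuclei. With the trend over gene span removed, Sorcs3 kept its call in granule-like nuclei (0.97, adjusted p = 0.00549) and under acute restriction (-0.74, adjusted p = 0.0101), but stood at -0.09 (adjusted p = 0.882) in oligodendrocyte-like and 0.31 (adjusted p = 0.293) in precursor-like nuclei with age, and Ier2 at -1.64 (adjusted p = 0.126). Pcsk1, which cleaves prohormones, rose with age in granule-like nuclei (0.83, adjusted p = 0.0385). The 21 upstream regulators (CREB, its coactivators, serum response factor, the MEF2 family and their kinases) and the 11 protein partners (the other Homer proteins, the Shank scaffolds, the RXR partners of the nuclear receptors and the NAB repressors of EGR factors) had 0 calls by edgeR in each of the 4 contrasts. With age, 28 of 190 regulator pairs and 19 of 75 partner pairs had an unadjusted p below 0.05, beside 17.3% of all pairs, and DESeq2 called 4 regulator pairs and 2 partner pairs, in a fit that called 3.15% of all pairs. In the other 3 contrasts 1 to 6 regulator pairs and 2 to 3 partner pairs had an unadjusted p below 0.05, beside 3.17 to 4.98% of all pairs, and DESeq2 called 0.

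The members occurred in the same nuclei more often than their separate rates gave. Expected numbers were computed within each mouse from the product of the 2 genes' shares of nuclei, after thinning. At 1000 UMIs, 296 pairs of members were seen in the same granule-like nucleus over the 45 possible gene pairs, against 104.3 expected, and in 36 pairs without Homer1 they were 123 against 16.5. The ratio of observed to expected pairs averaged 2.74 ± 1.10 over 13 mice (SD) and was above 1 in 12. In CA1-like nuclei it averaged 1.71 ± 0.443 and in the larger CA1-like cluster alone 1.69 ± 0.540, each above 1 in 12 of 13 mice. Because rates differ between clusters, the largest granule-like cluster was also taken alone, where 68 pairs were seen against 35.8 expected. The ratio there averaged 1.30 ± 1.38 over mice and was above 1 in 6 of 13, so at this depth the excess was not detectable in each mouse. Long-term restriction replicate 1 gave 22 of the 68 pairs, from 3 nuclei, and without it the ratio was 0.98 ± 0.820, with 46 pairs against 31.4 expected. At 2000 UMIs the ratio in that cluster was 1.76 ± 1.31, above 1 in 9 of 13 mice, and at 5000 UMIs 1.31 ± 0.418, above 1 in 11 of 13 (505 pairs against 361.3 expected, and 175 against 59.5 without Homer1). Without long-term restriction replicate 1 these means were 1.47 ± 0.841 and 1.28 ± 0.422. For the whole granule-like class at 5000 UMIs it was 1.77 ± 0.401, above 1 in 13 of 13. These are counts in sparse data with no test attached.

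At 5000 UMIs, which 23128 granule-like and 7448 CA1-like nuclei reached, single pairs could be read. Expected numbers were taken over the whole class, so unlike rates between its clusters enter them. Values for single pairs within 1 cluster are not given here. Fos was seen with Arc in 18 granule-like nuclei against 0.309 expected, with Npas4 in 10 against 0.162 and with Junb in 24 against 2.52. Nr4a1 was seen with Nr4a2 in 59 against 13.3, above expectation in 11 of 13 mice. Pairs with Homer1, which is found in many nuclei, lay nearest to expectation, such as Junb with Homer1 in 399 against 346.9. Arc was seen with Egr1 in 11 against 1.34. In CA1-like nuclei the ratio of observed to expected was smaller for the same pairs, while the numbers of nuclei were larger: Fos with Arc in 24 nuclei against 7.52, Nr4a1 with Nr4a2 in 235 against 124.0, and Arc with Egr1 in 97 against 39.0 (above expectation in 12 of 13 mice).

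**Figure D4:**
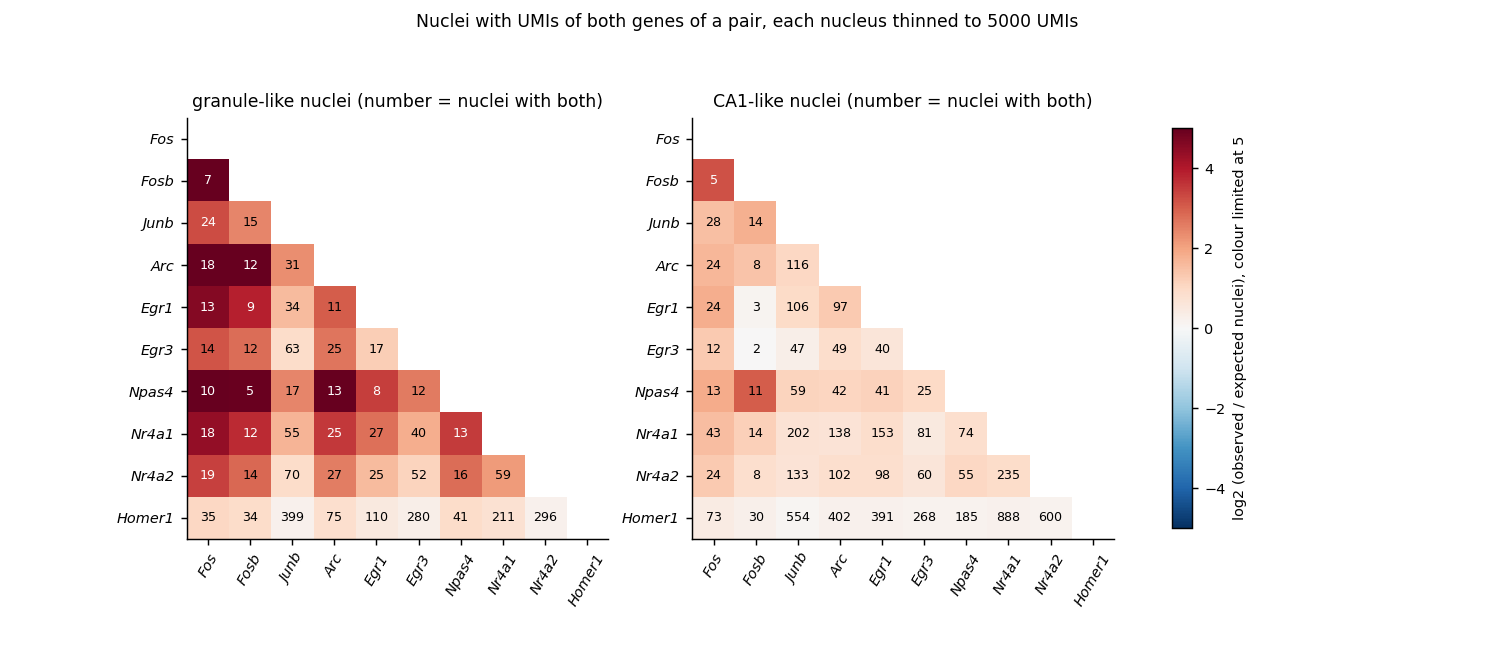
Colour gives the log2 ratio of observed to expected nuclei with UMIs of both genes of a pair, and the number the observed nuclei, in granule-like (left) and CA1-like nuclei (right) thinned to 5000 UMIs. Expected numbers are over the whole class and include unlike rates between clusters. Pairs of Fos, Arc and Npas4 are the darkest in granule-like nuclei, with 18 nuclei for Fos and Arc, and pairs with Homer1 the palest.

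Nuclei with UMIs of 2 or more members were rare among granule-like and common among CA1-like nuclei. At 5000 UMIs they made up 4.15 to 6.54% of granule-like nuclei over the 13 mice and 20.1 to 43.9% of CA1-like nuclei. Homer1, whose constitutive forms are counted too, was 1 of the genes in most of them: without it, 288 of 1283 such granule-like nuclei and 935 of 2305 such CA1-like nuclei still held 2 members. In CA1-like nuclei the share was 27.9, 41.0 and 43.9% in young, 31.8, 25.4 and 27.1% in old ad libitum, 30.1, 37.7 and 25.3% in acute restriction and 31.3, 27.2, 23.9 and 20.1% in long-term restriction mice. The young and old ad libitum ranges overlapped at this depth, through young replicate 1, and also without Homer1 (10.3 to 26.0% and 7.71 to 13.8%). At 2000 UMIs they overlapped too (8.04 to 22.3% in young and 8.11 to 10.1% in old mice). At 1000 UMIs they did not (4.16 to 11.2% and 2.41 to 3.47%, and without Homer1 1.34 to 4.17% and 0.0 to 0.654%). In the larger CA1-like cluster alone they overlapped at 1000 UMIs (4.02 to 11.8% and 2.45 to 4.55%) and at 5000 UMIs (33.0 to 49.4% and 25.6 to 40.9%). Without Homer1 that cluster gave 1.15 to 5.48% and 0.0 to 0.649% at 1000 UMIs, with no overlap, from 0 to 5 nuclei per old mouse. At 5000 UMIs it gave 12.3 to 28.2% and 7.83 to 15.6%, with overlap. In granule-like nuclei at the same depth the share was 6.08 to 6.29% in young and 5.26 to 5.86% in old ad libitum mice, with 4.15 to 5.63% under acute and 5.00 to 6.54% under long-term restriction. The young and old ranges did not overlap, but only 526 of the 2979 nuclei of young replicate 2 reached this depth. They overlapped without Homer1 (1.14 to 1.97% and 0.978 to 1.85%) and in the largest cluster alone (4.01 to 5.23% and 3.78 to 4.21%). At 2000 UMIs per granule-like nucleus the share was 1.60 to 1.88% in young and 1.19 to 1.28% in old ad libitum mice, and without Homer1 0.489 to 0.869% and 0.218 to 0.459%. In the largest cluster the ranges overlapped with Homer1 (0.974 to 1.47% and 0.0 to 1.17%). Without Homer1 they did not there (0.266 to 0.631% and 0.0 to 0.233%), from 0 or 1 nuclei per old mouse. At 1000 UMIs (0.163 to 0.772% and 0.417 to 1.22%) the groups overlapped in the whole class too.

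Other genes accompanied the members in single nuclei. In granule-like nuclei at 1000 UMIs, 146 nuclei with 2 or more members were set against 27457 nuclei with none in the 12 mice that had at least 5 of the first kind, and 755 other genes with at least 30 UMIs in the first kind and detected there in at least 10 mice were ranked by the median log2 ratio over mice (0.01 over the 755 genes). The highest was 1700016P03Rik, a noncoding transcript, at a median of 5.75. Nr4a3, the remaining receptor of the NR4A family, followed at 5.51 and Tiparp, a mono-ADP-ribosyltransferase, at 4.22. Btg2, an antiproliferative rapid response gene, stood at 3.19, Sorcs3 at 2.94, Sorcs1 at 2.84, Elmo1 at 2.78, Frmd6 at 2.58, Rheb, a GTPase upstream of mTORC1, at 2.21 and Ntrk2, the receptor of BDNF, at 2.17. The 10 genes had UMIs in the first kind of nuclei in 10 to 12 of the 12 mice, and a ratio from a mouse with none rests on the count added to avoid division by 0. Such a ratio can lie above 0: Btg2, Frmd6 and Rheb had UMIs there in 10 mice and ratios above 0 in 12. The filter on UMIs acts on the nuclei in which the genes are then high, so it favours scarce genes found there, and the ranking is a description. In a ranking added after the data were seen, without that filter or the added count, UMIs in the first kind of nuclei were set against those expected in each mouse from both kinds together, for the 9852 genes with at least 1 UMI expected. Nr4a3 (43 UMIs against 1.09 expected), 1700016P03Rik (43 against 1.35) and Tiparp (40 against 2.27) ranked 1 to 3, above expectation in 11, 11 and 12 of 12 mice. Btg2 ranked 7, Sorcs3 19 and Ntrk2 34, and 4 of the 10 genes were among the first 10. Bdnf, named here after its value was seen, ranked 13 by the first ranking, with 1.95, and 52 by observed against expected (50 UMIs against 12.2). The 2 kinds of nuclei also differed in cluster: over the 13 mice, 74 of the 147 nuclei with 2 or more members (50.3%) lay in the Pappa and Bdnf cluster, against 21.8% of the nuclei with none, and the part of the cluster in this ranking was not tested. Nr4a3 and Btg2 are among the 20 other rapid response genes and Sorcs3 and Bdnf among the 14 late response genes of the lists used here.

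The transcript 1700016P03Rik (chr11:75172560-75177633, plus strand, mm10) contains the genes of 2 microRNAs, Mir212 (chr11:75173388-75173478) and Mir132 (chr11:75173682-75173747), both known as CREB-induced microRNAs of neurons. Their mature 3p arms are shown because they share a seed; capitals mark the seed, bases 2 to 8.
miR-132-3p: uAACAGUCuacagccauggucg
miR-212-3p: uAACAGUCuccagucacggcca
The deposited counts are of the host transcript and say nothing of the mature microRNAs. In CA1-like nuclei, a ranking added after the data were seen (406 against 5277 nuclei, 2066 genes) over both clusters of the class also had 1700016P03Rik first at 3.29 (-1.66 to 6.14 over mice), followed by Nr4a3 at 2.83 (-0.15 to 4.38) and Bdnf at 2.62 (0.53 to 3.81). By observed against expected UMIs these ranked 1, 4 and 30 of 12486 genes, above expectation in 10, 11 and 10 of 13 mice.

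**Figure D5:**
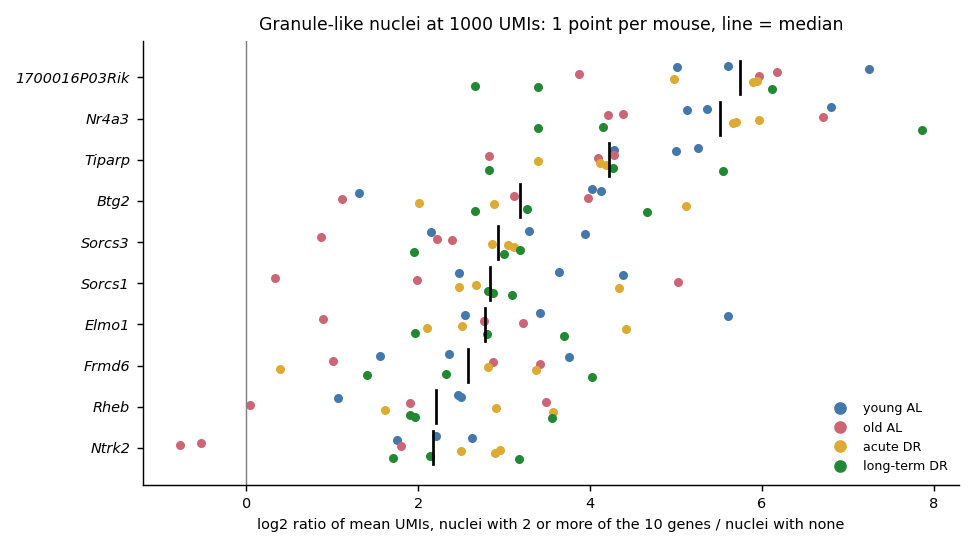
Log2 ratio of mean UMIs (x axis) in granule-like nuclei with 2 or more of the 10 genes against nuclei with none, for the 10 highest-ranked other genes, 1 point per mouse coloured by group and a line at the median. 1700016P03Rik and Nr4a3 had UMIs in the first kind of nuclei in 11 of the 12 mice, and their points lie above 2.6, whereas Ntrk2 falls below 0 in 2 mice. The point of a mouse without such UMIs rests on the count added to avoid division by 0 and can lie above 0.

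Markers of other cell types were summed in these nuclei per 1000 UMIs over the 13 mice. In granule-like nuclei the sums of 8 of the 16 lists of other types were higher in the 147 nuclei with 2 or more members than in those with none, and 8 were lower. The 6 granule markers themselves summed to 3.80 and 3.93. Lists higher in the nuclei with 2 or more members were Cajal-Retzius (0.0204 against 0.00482), inhibitory (0.1497 against 0.0899), oligodendrocyte (0.483 against 0.337), microglial (0.102 against 0.0763), CA1 (0.333 against 0.301) and subicular or cortical markers (0.422 against 0.399), and the committed precursor and endothelial lists at 0.0068 each. Lists that were lower included CA3 (0.102 against 0.159), astrocyte (0.163 against 0.209), oligodendrocyte precursor (0.742 against 0.8293) and mossy cell markers (0.735 against 0.780), and the ependymal, macrophage and mural lists were at 0. In CA1-like nuclei 7 of 16 lists were higher and 9 lower, among them inhibitory (0.0320 against 0.0286), CA3 (0.241 against 0.198), astrocyte (0.0616 against 0.103) and oligodendrocyte markers (0.0862 against 0.0824), and the CA1 markers summed to 3.58 and 2.98. Their part in the rankings was not tested.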

How the data were processed

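Nuclear RNA was sequenced from 13 mice with 10x Genomics chemistry, 1 library per mouse. The deposited values are raw UMI counts per gene and barcode, made with Cell Ranger 4.0.0 on mm10 per the submitters' processing notes; the intron and strand settings are not given in the sources used here.

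Barcodes were kept from 500 genes up, with mitochondrial UMIs of 5% or less (105427 of 105759), and the highest doublet scores were removed (0.8% per 1000 barcodes, 7386 in all). Nuclei were clustered with scanpy 1.11.5 and leidenalg 0.10.2 into 35 clusters, of which 20 were named from markers. UMI counts were summed per mouse and class (at least 20 nuclei), and groups were compared with edgeR 4.0.16 (quasi-likelihood, TMM, low-count filter, Benjamini-Hochberg within class and contrast, threshold 0.05), with DESeq2 1.42.0 as an alternative. Classes were compared with mouse as a term, and effects between classes with limma 3.58.1 on within-mouse differences. Each mouse is labelled as a separate sample. On simulated counts the ageing fit in granule-like nuclei (16059 genes) recovered 48.3% of changes of 0.7 and 99.1% of changes of 1.5 on the log2 scale. The limma comparison of granule-like with CA1-like nuclei recovered 25% and 82.5%. These counts had 1 fixed dispersion and no shared deviation of libraries, and only genes with many UMIs were changed. Fos, Fosb and Npas4 (124, 143 and 154 UMIs in granule-like nuclei) were too scarce to be among them. An uncalled member is therefore not shown to be unchanged.

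The members and gene lists were chosen with earlier results of these data known. Genes named were the 10 members, genes of the other lists called in any class (up to 6 per contrast), and the 10 genes most raised in granule-like nuclei with 2 or more members. Motifs were matched in RefSeq GRCm38.p6 promoter windows; Arc, Egr1 and Egr3 are named only. Intervals between mice include any technical spread between libraries.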

Additional observations from a re-analysis of the deposited data

Results flagged for a closer look

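Junb in oligodendrocyte-like nuclei of long-term restriction replicate 1 stood at 12.31 CPM, from 4 UMIs in 183 nuclei, while the other 3 mice of the group stood at 5.003, 3.5 and 3.958. It was singled out because its gap to the nearest mouse was large for the range of the group by Dixon's criterion. This was 1 of 49 groups tested, and chance singles out about 1 in 20 groups.

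Clusters that could not be named from markers entered no comparison, and 3 members had their highest mean level of all clusters in them. Fosb averaged 2.942 CPM in cluster 26 (446 nuclei, 7 mice, SD 2.90), whose leading genes include Plch1, Fermt1 and Cd44. Nr4a2 averaged 143.8 ± 21.6 CPM in the same cluster and 116.5 ± 56.2 in cluster 8 (3615 nuclei, 12 mice), led by Rai14 and Dpp10. Nr4a1 averaged 85.92 ± 27.7 CPM in cluster 19 (1335 nuclei, 12 mice), led by Fn1.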

How the results depend on the processing

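The number of member calls with age was 1 in the fit reported, where 1.55% of all pairs were called. It was 0 with the gene span trend removed (added after the data were seen, 0.847% of all pairs called). It was 0 with median UMIs per nucleus as a covariate (0.0338%) and 2 with no filter on low counts (1.27%). There were 3 with each granule-like cluster alone (2.18%), 3 with the number in the file name as a block (4.94%) and 3 with a term for number 1 (6.33%). Without the 4 libraries numbered 1 there were 9 (6.33%). With the block and with the term the 3 were Junb in granule-like and inhibitory-like nuclei and Nr4a2 in subicular or cortical-like nuclei. Leaving out 1 library at a time gave 0 to 2 calls. There were 0 without old ad libitum replicate 1 (1.06% of all pairs called), 2 (0.384%) or 4 (0.649%) or young replicate 2 (0.231%). Without young replicate 1 there were 2 (3.36%). With the replicate block there were 2 calls by edgeR (5.29% of all pairs called), Junb in granule-like (log2 difference -1.01, adjusted p = 0.00501) and in inhibitory-like nuclei (-1.18, adjusted p = 0.0436). Deviations of same-numbered libraries correlated above 0.1 in 6 of 6 pairs for number 1 but in 3 of 6 for number 2. For numbers in the file names they did so in 14 of 16 pairs (-0.03 to 0.82), which include the 6 pairs of number 1. Libraries with unlike file numbers correlated as well, such as acute restriction replicate 3 with young replicate 2 (0.684). Not every pair with the same number correlated above 0.1, so neither number was taken to pair the mice. Over all genes the number of ageing calls was 1648, against 3355 with DESeq2, 5635 with the replicate block and 36 with the median UMI covariate. Over 23 alternatives Junb in granule-like nuclei ranged from -1.09 to -0.42 and kept its call in 17. The restriction contrasts gave 0 calls in each of 24 alternatives, and calls between classes ranged from 78 to 84 around 83 when a library was left out. Co-detection in the largest granule-like cluster alone had a ratio of 1.298. In the larger CA1-like cluster alone (added after the data were seen) Fos, Junb, Arc and Egr3 with age and Fos and Junb under acute restriction kept their direction and were not called. Fos and Fosb rest on few UMIs (800 and 428 in all), and the reason was not tested.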
